A study of Homo sapiens with 4 samples.

Results

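The genes described here are the 10 mitochondrially encoded subunit genes of respiratory chain complexes I and IV: MT-ND1, MT-ND2, MT-ND3, MT-ND4, MT-ND4L, MT-ND5 and MT-ND6, which encode core subunits of NADH dehydrogenase (complex I), and MT-CO1, MT-CO2 and MT-CO3, which encode the catalytic core of cytochrome c oxidase (complex IV). They were chosen by name, by a rule that holds no measured value but was set with earlier results of these data known, and are 10 of the 19901 protein-coding genes in the count table. Newly made RNA was measured by TT-Seq, in which cells take up 4-thiouridine (4sU), a uridine analog that marks nascent transcripts, which are then biotinylated and pulled down. The cells were HCT116, a human colon cancer line, of the genotype KAP1_dTAG_CloneD5, a single clone in which endogenous KAP1 (the product of TRIM28, a transcriptional regulator) carries a degron tag. Both groups carried the tag. One group received DMSO for 8 h and the other 500 nM dTAG-13 (dTAG), which directs tagged KAP1 to the proteasome, for 8 h. Both were labeled with 500 μM 4sU for 10 min in homeostatic conditions. The methods describe 3 dishes per condition and 3 tubes of lysate per replicate, and there were n = 2 libraries in each group. The comparison asks whether the synthesis of these mitochondrial RNAs differed after acute loss of a nuclear regulator.

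The mitochondrial genome is transcribed by its own single-subunit RNA polymerase, POLRMT, with the factors TFAM and TFB2M, from promoters on its heavy and light strands. Each promoter gives a long polycistronic RNA, which is cut into mRNAs largely at the tRNAs that lie between them, so that genes of the same strand begin as pieces of the same transcript. Of the complex I and IV genes, only MT-ND6 is transcribed from the light strand promoter, and the other 9 come from the heavy strand promoter. The remaining subunits of both complexes are encoded in the nucleus, imported and assembled with the mitochondrial ones.

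All 10 genes lie on the mitochondrial chromosome and have no introns. In GENCODE 44 on hg38, MT-ND1 (ENSG00000198888.2) is at chrM:3307-4262, MT-ND2 (ENSG00000198763.3) at chrM:4470-5511, MT-CO1 (ENSG00000198804.2) at chrM:5904-7445, MT-CO2 (ENSG00000198712.1) at chrM:7586-8269 and MT-CO3 (ENSG00000198938.2) at chrM:9207-9990. Farther along the same strand, MT-ND3 (ENSG00000198840.2) is at chrM:10059-10404, MT-ND4L (ENSG00000212907.2) at chrM:10470-10766, MT-ND4 (ENSG00000198886.2) at chrM:10760-12137 and MT-ND5 (ENSG00000198786.2) at chrM:12337-14148. MT-ND6 (ENSG00000198695.2) follows MT-ND5 directly, at chrM:14149-14673, on the opposite strand. 4sU is incorporated in place of uridine, and the sense strands of these genes differ in how many T they hold. T made up between 23.8% and 30.3% of the bases of the 9 heavy strand genes, with the upper value in MT-ND3, and 37.7% of MT-ND6, which was also rich in G (35.6%) and poor in C (7.05%). The sense sequences below are the opening 60 bases of the gene on the light strand, of its neighbor MT-ND5 and of MT-ND3, the members whose values the results turn on and a heavy strand gene to set them against. T is in capitals, and there are 29 in MT-ND6, 15 in MT-ND5 and 22 in MT-ND3.
MT-ND6, chrM:14614-14673, minus strand: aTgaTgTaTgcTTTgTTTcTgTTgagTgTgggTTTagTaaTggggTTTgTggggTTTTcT
MT-ND5, chrM:12337-12396, plus strand: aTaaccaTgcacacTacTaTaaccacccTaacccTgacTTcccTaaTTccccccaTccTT
MT-ND3, chrM:10059-10118, plus strand: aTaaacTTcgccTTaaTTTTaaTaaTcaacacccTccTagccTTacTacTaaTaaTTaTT
MT-ND4L and MT-ND4 are translated from a shared mRNA and overlap, so that reads from the 7 shared bases, in capitals here, belong to both.
MT-ND4L and MT-ND4, chrM:10736-10790, plus strand: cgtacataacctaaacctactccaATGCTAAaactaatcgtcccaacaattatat

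Counts on all genes summed to between 93105627 and 102314741 per library, and 12612 genes had at least 50 counts in all 4 libraries and were tested. TRIM28, the gene of the degraded protein, had 61.7 and 69.8 CPM (counts scaled to library size with TMM factors) with DMSO and 53.5 and 47.9 with dTAG, a log2 fold change of -0.37 (adjusted p = 0.0189, quasi-likelihood test of edgeR, Benjamini-Hochberg adjusted). dTAG acts on the protein, so this value does not check the labels, and the call was kept in 7 of 11 other settings. The call was lost when ERCC spike-in RNAs set the library sizes or entered as a factor, and with replicate numbers as a block. It was also lost with trends on GC content and gene length removed, and without either dTAG library. Of 6 epithelial markers, EPCAM, CDH1, KRT8, KRT18 and KRT19 each passed the count minimum and VIL1 had 1 to 15 counts. Of 6 markers of other cell types, 2 also passed it. The fibroblast marker COL1A1 had 538 and 526 counts with DMSO and 520 and 420 with dTAG. The neuroendocrine marker SYP had 133 and 208 with DMSO and 187 and 165 with dTAG. The other 4 stayed under the minimum, among them the leukocyte marker PTPRC with 0, 0, 0 and 1 counts. GEO's labels call the starting material nuclear RNA and the methods describe an extraction of total RNA, and the 13 mitochondrially encoded genes took between 2.95% and 3.39% of the gene counts. Across the tested genes, log2 fold changes with dTAG fell with GC content (Spearman's rho = -0.56 across genes, which are not independent replicates) and rose with gene length (rho = 0.42). The libraries of a group also differed from each other along GC content (rho = 0.75 for DMSO replicate 2 over 1 and -0.43 for dTAG replicate 2 over 1). The gene lists below were not matched to all tested genes in GC content or length.

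In control cells, the heavy strand genes of complexes I and IV had some of the highest TT-Seq levels per length of any gene. Levels between genes are given as CPM per kilobase of the gene interval (introns included for nuclear genes). In the DMSO libraries, MT-CO2, which carries the copper center that takes electrons from cytochrome c, had 4249 ± 535 CPM per kilobase (mean ± SD, n = 2), MT-ND4 4111 ± 522 and MT-CO3 4076 ± 335. The ranges of neighbors among these 3 genes overlapped, so their order was not resolved. MT-ND1, a membrane subunit near the quinone site, followed with 2518 ± 186 and did not overlap with MT-CO3 above it or MT-CO1 below it. MT-CO1, the subunit that holds the oxygen-reducing site, had 2028 ± 201, MT-ND2 2009 ± 328, MT-ND4L 1928 ± 515 and MT-ND5 1925 ± 218, and the neighbors among these 4 again overlapped. MT-ND3 was the lowest of the heavy strand genes, with 1487 ± 261. Levels within the heavy strand group thus spanned 2.86-fold. These genes share a promoter but differ in length (298 to 1813 bases), T content and identical copies in the nuclear genome. The part of these in the span was not tested.

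MT-ND6 stood well below the rest. It had 347 and 295 CPM per kilobase in the DMSO libraries, 4.64-fold lower in the mean than MT-ND3, and was below MT-ND3 in 4 of 4 libraries. With dTAG, MT-ND6 had 422 and 420, again below all 9 heavy strand genes. Among the 12612 tested genes, the 12 heavy strand genes of the mitochondrial genome took the top 12 places by DMSO level, the histone gene H2AC20 was the highest nuclear gene with 470 CPM per kilobase, and MT-ND6 was at place 21, with 8 nuclear genes above it. The median tested gene had 1.06 CPM per kilobase. The count of RNA per gene in bulk libraries does not separate fewer mitochondrial genomes or cells from less RNA made by each.

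**Figure D1:**
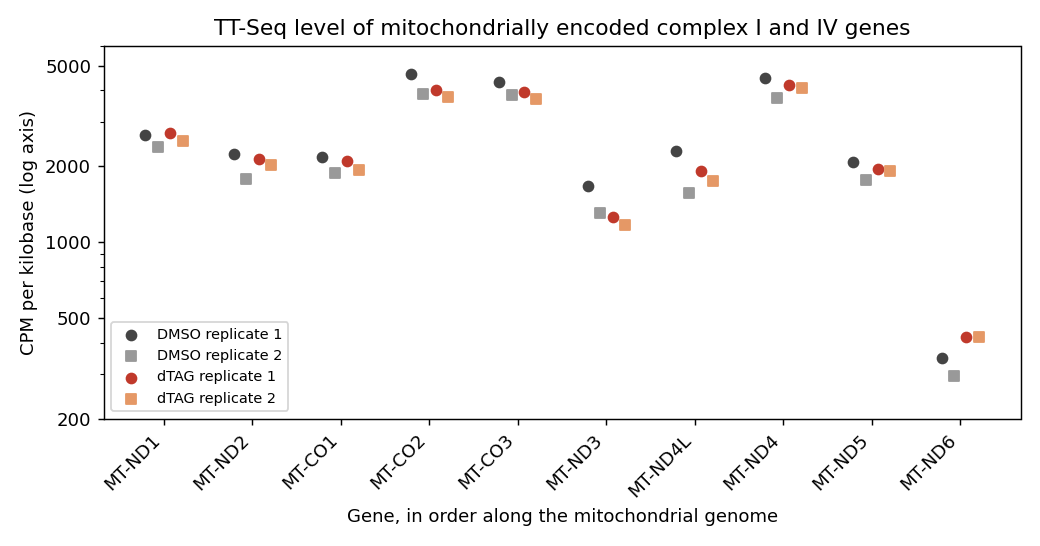
Level of each gene in CPM per kilobase (y axis, log scale) in each of the 4 libraries (points), with genes in order along the mitochondrial genome. Heavy strand genes lie between 1174 and 4628, MT-ND6 lies between 295 and 422, and MT-ND6 is the gene whose dTAG points are both above its DMSO points.

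The summed level of the 10 genes did not separate the treatments. Of all gene counts, they took 2.62% and 2.33% in the control libraries and 2.39% and 2.25% after dTAG. The 95% Wilson intervals of these shares, which cover counting error only and treat reads as independent, did not overlap between replicates. The log2 fold change of the sum was -0.014, with overlapping libraries (exact permutation test, two-sided, p = 1.0, where 2 libraries against 2 cannot go below 0.333). The 7 complex I genes together differed by 0.021 and the 3 complex IV genes by -0.071 on the log2 scale (exact permutation p = 1.0 and 0.667). Each of the 10 genes was higher in DMSO replicate 1 than in DMSO replicate 2, by a margin that ran from 11.0% for MT-ND1 to 46.5% for MT-ND4L, whereas dTAG replicate 1 was above dTAG replicate 2 by 0.482% to 9.48%.

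Gene by gene, MT-ND6 was the only member whose level rose past the threshold, and none fell past it. At an adjusted p under 0.05, 1 of the 10 genes was called higher and 0 lower by edgeR's quasi-likelihood test, and 2 had an unadjusted p under 0.05, as had 26.6% of all tested genes. The likelihood ratio test and DESeq2 also gave 1 higher and 0 lower. For comparison, 7.1% of all tested genes were called, 3.44% higher and 3.66% lower. The dTAG and DMSO libraries did not overlap for 2 of the 10 genes, MT-ND6 and MT-ND3, against 58.8% of all tested genes. The median log2 fold change over the 10 genes was -3.7e-05 and that over all tested genes -0.015.

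MT-ND6, a membrane subunit of complex I, had 182 and 155 CPM with DMSO and 222 and 221 with dTAG. Both dTAG libraries were thus above both DMSO libraries and close to each other. The underlying counts were 18064, 15460, 22207 and 19913. The mean went from 169 ± 19.4 to 221 ± 0.752 CPM (SD, n = 2), a 1.31-fold rise and a log2 fold change of 0.39 (SE 0.093, 95% interval 0.20 to 0.59, adjusted p = 0.0158, edgeR's quasi-likelihood test). MT-ND6 was higher with dTAG under all 11 other settings of scaling, filter and test and called in 9 of them, with adjusted p from 2.2e-05 to 0.47. The lowest value was 0.22, with a factor from the ERCC spike-in RNAs as a covariate (adjusted p = 0.0053). The call was lost when replicate numbers entered as a block (log2 fold change 0.40, adjusted p = 0.073) and with ERCC totals as library sizes (1.01, adjusted p = 0.47), under which the median over all genes was 0.63. It was also lost without dTAG replicate 1 (0.39, adjusted p = 0.35) or dTAG replicate 2 (0.40, adjusted p = 0.63), with the value hardly moved, in fits that assume the lone library to vary like the DMSO libraries.

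MT-ND3, which forms part of the hinge between the membrane and peripheral arms of complex I, was on the other side. It had 580 and 452 CPM with DMSO and 439 and 408 with dTAG. Both dTAG libraries were below both DMSO libraries, but the DMSO libraries differed from each other by far more than the lower of them did from dTAG replicate 1. The log2 fold change was -0.29 (SE 0.11, 95% interval -0.52 to -0.05) and did not pass the threshold (unadjusted p = 0.0185, adjusted p = 0.112). MT-ND3 was called lower in 3 of 11 other settings, with adjusted p over all of them from 6.2e-15 (with the ERCC factor) to 0.67. With ERCC totals MT-ND3 was at 0.31, below the shifted median of all tested genes. Its value rested on the DMSO libraries, with -0.46 without DMSO replicate 2 (adjusted p = 9.8e-07) and -0.10 without DMSO replicate 1 (adjusted p = 0.34), in fits that assume the lone DMSO library to vary like the dTAG libraries.

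The other 8 heavy strand genes had overlapping libraries and log2 fold changes between -0.13 and 0.05, with adjusted p of at least 0.55. Their 95% intervals together ran from -0.40 to 0.32, so that changes beyond 0.757-fold or 1.25-fold lay outside each of them. With the ERCC factor, MT-ND4L was at -0.41 (adjusted p = 8.8e-10) and MT-CO2 at -0.28 (adjusted p = 0.0030), both called lower. That factor itself differed between the groups, so these p-values cannot be read as effects of treatment alone. MT-ND5, the neighbor of MT-ND6 on the opposite strand and a proton-pumping subunit, had 3769 and 3211 CPM with DMSO and 3533 and 3477 with dTAG. MT-ND4, another proton-pumping subunit and the gene with the most counts, had 6178 and 5160 with DMSO and 5786 and 5648 with dTAG. In both genes the dTAG libraries fell between the DMSO libraries, and the log2 fold changes were 0.01 for MT-ND5 and 0.01 for MT-ND4.

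MT-ND1 had 2536 and 2284 CPM with DMSO and 2585 and 2414 with dTAG, a log2 fold change of 0.05. MT-ND2, also a pumping subunit, had 2337 and 1854 with DMSO and 2230 and 2106 with dTAG, also 0.05. For both genes at least 1 dTAG library lay inside the range of the DMSO libraries. MT-ND4L, a small membrane subunit, had 683 and 466 with DMSO and 572 and 522 with dTAG, a log2 fold change of -0.07. Leaving out DMSO replicate 1 gave 0.23 and leaving out DMSO replicate 2 gave -0.32, so that its sign differed with the DMSO library kept.

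The complex IV genes had values on the lower side that did not pass the test. MT-CO1 had 3349 and 2910 CPM with DMSO and 3239 and 2993 with dTAG, a log2 fold change of -0.01 (adjusted p = 0.98). MT-CO2 had 3170 and 2651 with DMSO and 2759 and 2570 with dTAG, at -0.13 (adjusted p = 0.55). MT-CO3, a structural core subunit, had 3385 and 3014 with DMSO and 3098 and 2897 with dTAG, at -0.09 (adjusted p = 0.67). In MT-CO2 and MT-CO3, dTAG replicate 2 was below both DMSO libraries and dTAG replicate 1 was between them. The median over the 3 complex IV genes was -0.09 and that over the 7 complex I genes 0.01.

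**Figure D2:**
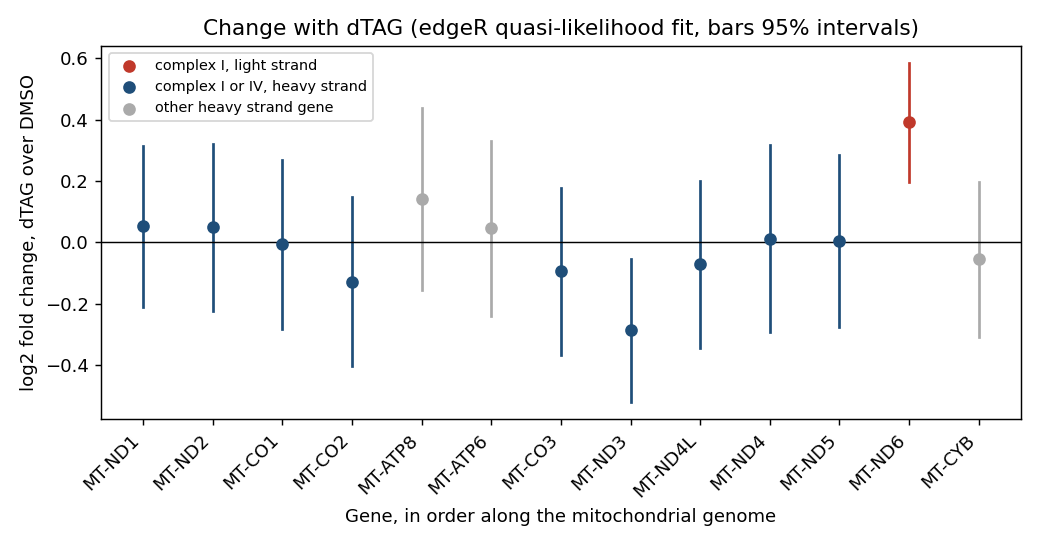
Log2 fold change of dTAG over DMSO (y axis) for the 13 mitochondrially encoded genes in genome order, from edgeR's quasi-likelihood fit over all tested genes, with 95% intervals as bars. The interval of MT-ND6 (red), 0.20 to 0.59, lies above 0, that of MT-ND3 lies below 0 without passing the threshold after adjustment, and the intervals of the other genes contain 0.

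Setting genes against each other within a library removes the scaling between libraries. MT-ND6 counts were 0.702% and 0.704% of the summed counts of the 9 heavy strand genes with DMSO, and 0.915% and 0.958% with dTAG. The DMSO libraries were nearly equal in this ratio, although they differed in the level of every gene in it, and both dTAG libraries were higher. The log2 difference was 0.41, or 1.33-fold, with an SD over libraries of 0.0035 with DMSO and 0.047 with dTAG (exact permutation test, two-sided, p = 0.333, the smallest that 2 libraries against 2 allow). With the heavy strand totals as library sizes, an alternative chosen after seeing the data, edgeR's quasi-likelihood test gave 0.41 for MT-ND6 (95% interval 0.16 to 0.67, unadjusted p = 0.0016), which did not pass the threshold over all tested genes (adjusted p = 0.092).

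MT-ND6 was also set against single heavy strand genes. MT-ND6 over its neighbor MT-ND5 was 4.84% and 4.83% with DMSO and 6.28% and 6.35% with dTAG, a log2 difference of 0.39. MT-ND3 over the other 8 heavy strand genes was 2.28% and 2.10% with DMSO and 1.84% and 1.80% with dTAG, a log2 difference of -0.26, which restates that MT-ND3 had the lowest fold change of the 9. For each of these ratios the dTAG libraries did not overlap with the DMSO libraries, and the exact permutation p was again 0.333, so that the differences could not pass the threshold. MT-ND6 over MT-ND3 moved most, from 31.5% and 34.3% to 50.5% and 54.2%, a pair that was picked after its values were seen.

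**Figure D3:**
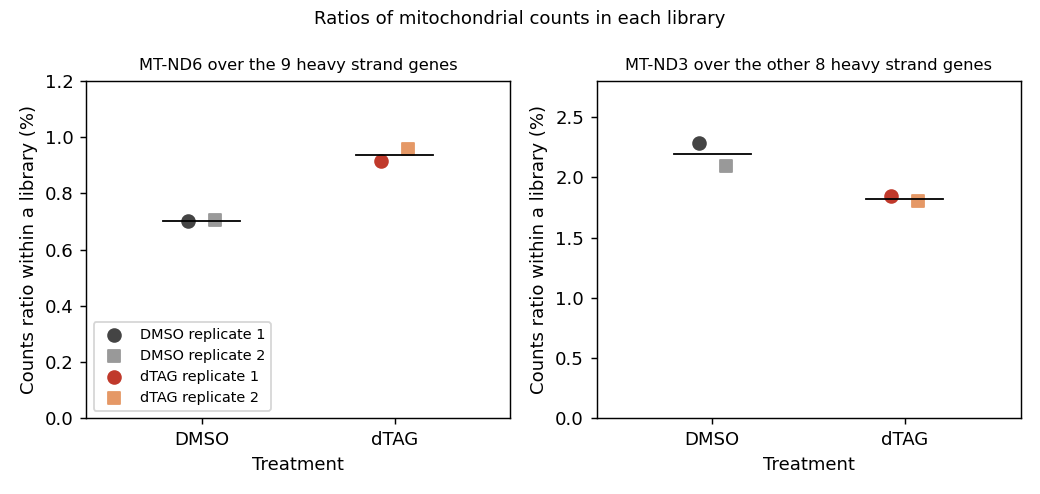
Counts of MT-ND6 over the 9 heavy strand genes (left) and of MT-ND3 over the other 8 (right), in percent (y axes from 0), in each library (points), with group means as lines. The left ratio is 0.702% and 0.704% with DMSO against 0.915% and 0.958% with dTAG, and the right ratio is lower with dTAG.

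Base composition and sequence copies were set beside these values. MT-ND6 and MT-ND3 had the highest T content of the 10 genes, 37.7% and 30.3%, and lay on opposite sides of 0. GC content was between 40.2% (MT-ND3) and 47.7% (MT-ND1). MT-ND6, with 42.7% GC, lay between MT-ND3 and MT-ND2 (43.0%) and MT-ND4L (43.1%), whose log2 fold changes were 0.05 and -0.07. With the trends on GC content and gene length removed from each library, MT-ND6 was at 0.47 and called higher, as was MT-ND1 at 0.20, and MT-ND3 was at -0.22 and called lower. The nuclear genome holds copies of mitochondrial DNA, and of the windows of 50 bases in each gene, an identical copy on a nuclear chromosome was found for 19.96% in MT-ND6, 0% in MT-ND3 and MT-ND4L, and up to 50.6% in MT-CO1. In the main fit, MT-ND3 and MT-ND4L, with no such window, and MT-CO1, with the most, were not called. Over the 11 other settings, MT-ND3 was called in 3, MT-ND4L in 1 and MT-CO1 in 0. The part of base composition and of nuclear copies in the change of MT-ND6 was not tested.

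**Figure D4:**
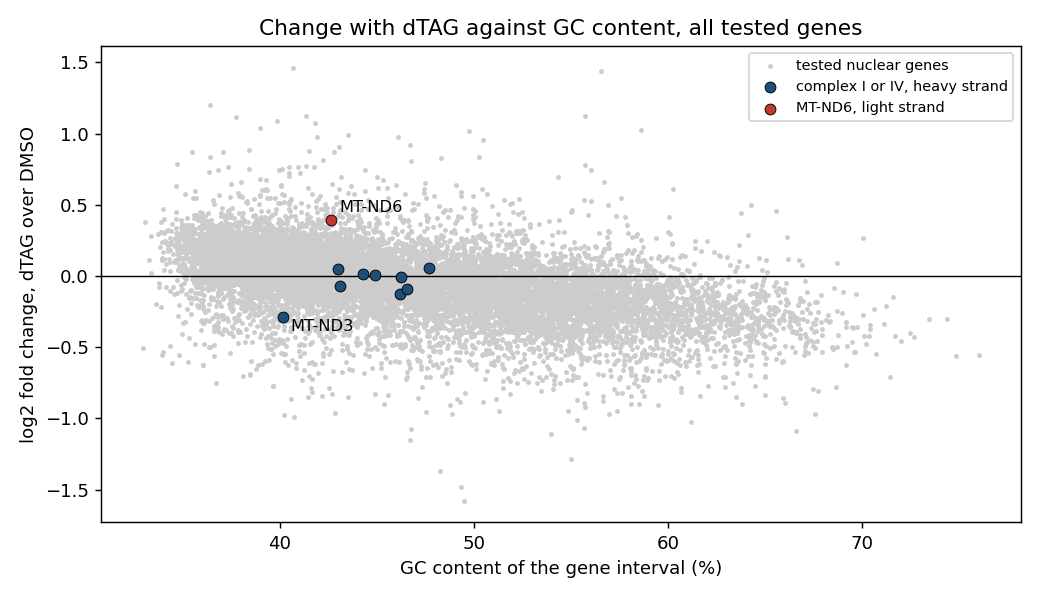
Log2 fold change of dTAG over DMSO (y axis) against GC content of the gene interval in percent (x axis) for tested genes, with nuclear genes in grey. The heavy strand genes (blue) and MT-ND6 (red) lie between 40.2% and 47.7% GC, where MT-ND6 is above the heavy strand genes and MT-ND3 is below them.

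The nuclear genes for the same complexes had far lower levels per length, and none was called higher, against 3.44% of all tested genes. Of 37 nuclear-encoded complex I subunit genes, 31 were tested and 0 were called in either direction by edgeR's quasi-likelihood test or DESeq2, with 8 of 31 at an unadjusted p under 0.05, near the 26.6% of all tested genes. The likelihood ratio test called 2 lower, NDUFA2 and NDUFV1. Their median log2 fold change was -0.08, with 8 positive and 23 negative values, and their median DMSO level was 3.20 CPM per kilobase. Of 15 nuclear-encoded complex IV subunit genes, 10 were tested, and 9 of the 10 values were negative, with a median of -0.13. COX6B1, a subunit on the intermembrane side of complex IV, was the only one called, and fell by 0.31 on the log2 scale, from 51.5 and 49.8 CPM to 42.3 and 39.5 (adjusted p = 0.0447). Its libraries did not overlap, as was the case for 5 of the 10 tested genes of this list and 58.8% of all tested genes. COX6B1 was called in 7 of 11 other settings, with adjusted p over the 11 from 0.0075 to 0.60. The call was lost under RLE or ERCC-total scaling, a count minimum of 10 and the replicate block, and without either dTAG library. The median over all tested genes was -0.015.

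Genes that act on mitochondrial transcripts were mostly not called, as was the case for all tested genes, of which 7.1% were called. Of 8 genes of the mitochondrial transcription machinery, all 8 were tested and 0 were called by edgeR's tests or DESeq2. Of these, 1 had an unadjusted p under 0.05 by edgeR's quasi-likelihood test (26.6% of all tested genes). That gene was POLRMT, the mitochondrial RNA polymerase, with 41.1 and 45.1 CPM with DMSO and 39.4 and 35.5 with dTAG, a log2 fold change of -0.20 (unadjusted p = 0.048, adjusted p = 0.18). TFAM, which bends promoter DNA and packages the genome, was at 0.11 (adjusted p = 0.42), TFB2M, which opens the promoter, at 0.12 (adjusted p = 0.34), and TEFM, an elongation factor, at -0.0003 (adjusted p = 1.0). Both libraries of POLRMT with dTAG were below those with DMSO, and both libraries of TFAM and TFB2M were above. Such a lack of overlap was found for 5 of these 8 genes and for 58.8% of all tested genes.

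Of 20 genes for mitochondrial RNA processing and stability, 19 were tested and 0 were called by edgeR's quasi-likelihood test, with 5 of 19 at an unadjusted p under 0.05 (26.6% of all tested genes), a median of 0.11 and 15 positive values. The likelihood ratio test and DESeq2 each called 2 higher (LRPPRC and PNPT1) and 1 lower (FASTK). LRPPRC, which with its partner SLIRP stabilizes mitochondrial mRNAs, had 456 and 412 CPM with DMSO and 518 and 530 with dTAG, a log2 fold change of 0.27 (adjusted p = 0.090), and SLIRP was at 0.14 (adjusted p = 0.30). The libraries of LRPPRC did not overlap, as was the case for 11 of the 19 tested genes and 58.8% of all tested genes. The 10 genes for replication and maintenance of mitochondrial DNA were all tested, with 0 called by any of the 3 tests and a median of 0.0042. By edgeR's quasi-likelihood test, 3 of the 10 had an unadjusted p under 0.05 (26.6% of all tested genes). Of 8 nuclear regulators of mitochondrial genes, 7 were tested and 1 was called, against 7.1% of all tested genes. It was GABPB1, a subunit of the transcription factor GABP, with 81.5 and 75.2 CPM with DMSO and 94.7 and 98.6 with dTAG. GABPB1 rose by 0.30 (adjusted p = 0.0343, edgeR's quasi-likelihood test). GABPB1 was also called in 7 of 11 other settings, with adjusted p from 0.013 to 0.47, and not under upper-quartile or ERCC-total scaling, the ERCC factor or the replicate block, nor without either dTAG library.

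The tested genes whose profile over the 4 libraries was nearest to the mean of the 10 genes were PPID, LACTB, MRPS6, CD46 and INIP, at root mean square distances of 0.0032 to 0.013 on the log2 scale. The mean profile itself was 0.14 and -0.14 with DMSO and 0.04 and -0.04 with dTAG, relative to each gene's own mean. The widest gap in it was that between the 2 DMSO libraries. The members themselves were at distances of 0.019 (MT-ND4) to 0.20 (MT-ND6) from it.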

How the data were processed

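TT-Seq libraries of HCT116 KAP1-dTAG cells were analyzed, 2 with DMSO and 2 with dTAG, grouped by GEO's labels. The authors trimmed 50-base paired-end reads (Trim Galore 0.6.4, with FastQC 0.11.8), mapped them to hg38 with STAR and, with featureCounts (Subread 1.6.3), counted reads over whole protein-coding genes, and the deposited values are these raw counts, without normalization, for 19901 genes and 92 ERCC RNAs. The methods do not state the strand setting. Of 158 genes lying inside a gene of the same strand, 158 had 0 counts, whereas 344 of 404 genes inside a gene of the opposite strand had counts, so the counting separated strands and left out reads shared by genes of a strand, such as those in the overlap of MT-ND4L and MT-ND4. Gene starts in the file were 1 base before those of GENCODE 44, with equal ends, in all 1387 genes with the same versioned identifier.

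Genes that reached 50 counts in each of the 4 libraries were tested with edgeR 4.0.16 in R 4.3.3 (TMM factors 0.970 to 1.05, quasi-likelihood test, two-sided, no replicate block, Benjamini-Hochberg adjustment over the 12612 tested genes, threshold 0.05). TMM was used because the methods, which name edgeR 3.40.1 with RUVSeq and ERCC RNAs, do not name the RUVSeq function or how many factors were used. Single values were compared with exact permutation tests in scipy 1.17.1. Tested on simulated data for this comparison over 12612 genes, the fit recovered 98% of genes changed by 1 and 69% of genes changed by 0.5 on the log2 scale, with 4.57% of calls false. These counts were drawn independently from each gene's mean CPM, the library sizes and the trend of dispersion over all tested genes, with 200 genes changed. They lack the trends on GC content of the real libraries and any dispersion particular to a gene. The recovered and false shares thus hold for the model and not for these data. In the quasi-likelihood test, the spread of a gene between 2 biological replicates per group was moderated toward a spread estimated over all tested genes. The prior degrees of freedom were 18.88 and the residual ones 2. A gene's p-value thus rests mostly on the spread shared between genes.

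The members and lists were chosen with earlier results of these data known. Genes named are the 10 members, the other mitochondrially encoded genes, TRIM28, the called genes of each list (up to 5, otherwise the 3 that changed most), POLRMT, TFAM, TFB2M, TEFM, LRPPRC, SLIRP and the 5 genes nearest to the members' mean profile. NDUFA2, NDUFV1, PNPT1, FASTK and H2AC20 were added after their values were seen. The alternatives were upper-quartile, RLE and ERCC-total scaling, scaling without mitochondrial genes, an ERCC factor, the likelihood ratio test, DESeq2 1.42.0, a count minimum of 10 or none, a replicate block, removal of trends on GC content and length, and leaving out each library.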

Additional observations from a re-analysis of the deposited data

How the results depend on the processing

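With 2 libraries per group, leaving out a dTAG library left few calls in the whole table, and the ERCC RNAs held at most 0.0265% of the gene counts, which limits settings that rest on them. Of 120 values of the 10 genes under 12 alternatives, of which the crossed block was chosen after seeing the data, 91 kept direction and side of the threshold, 2 (both MT-ND6) lost the call, 7 gained one and 20 turned in sign, 8 of the 20 also relative to the median of all tested genes. The cause of the other changes was not tested. In the main fit 434 genes were called higher and 461 lower, 1 and 0 of them among the 10 genes, and 1 and 1 among the other lists. With upper-quartile scaling the numbers were 255 and 869 in the table, 1 lower (MT-ND3) among the 10 genes, 0 and 3 in the lists, and MT-ND1 (-0.020), MT-ND2 (-0.023), MT-ND4 (-0.060) and MT-ND5 (-0.066) changed sign with the median of all tested genes (-0.088) and stayed above it. With ERCC totals there were 0 and 0 calls in the table (edgeR, 229 genes at an unadjusted p under 0.05, 0 of them among the 10 genes or the lists), 0 higher among the 10 genes and 0 and 0 in the lists. The median of all tested genes was then 0.63, that of the 10 genes 0.61 and their sum 0.59, MT-ND6 was at 1.01 (0.37 above the median of all genes, adjusted p = 0.47), and MT-ND3 (0.31), MT-ND4L (0.50), MT-CO1 (0.61), MT-CO2 (0.48) and MT-CO3 (0.52) changed sign with that shift, all 5 below the median of all genes. With the ERCC factor 796 genes were called higher, 3 of the 10 genes lower (MT-ND3, MT-ND4L and MT-CO2), and 6 and 5 in the lists, with a median of -0.17 and a sum of -0.17 for the 10 genes, and MT-ND1 (-0.027), MT-ND2 (-0.16), MT-ND4 (-0.17) and MT-ND5 (-0.16) turned. The likelihood ratio test gave 729 and 864 (lists 3 and 4), DESeq2 691 higher (lists 3 and 2, MT-CO1 at 0.0054), no filter 673 and 744 (lists 2 and 3, MT-CO1 at 0.00038), RLE 0 lower in the lists with MT-CO1 at 0.0054, and a minimum of 10 counts 0 lower in the lists. Without the GC and length trends 1343 and 941 genes were called, 2 and 1 of the 10 genes (MT-ND6 and MT-ND1 higher, MT-ND3 lower) and 11 and 6 in the lists, and MT-ND4L (0.047), MT-CO1 (0.087), MT-CO2 (0.0016) and MT-CO3 (0.035) turned. The replicate numbers of the groups were not paired by the labels, and same-numbered libraries deviated in opposite directions (correlation -0.24 across tested genes). With a replicate block 162 and 178 genes were called, 0 of the 10 genes and 0 and 0 in the lists (edgeR, 1 of the 10 genes and 9 list genes at an unadjusted p under 0.05), and MT-ND6 was at 0.40 (adjusted p = 0.073). With the replicate block crossed 1587 and 1603 genes were called, 1 of the 10 genes lower, and 7 and 9 in the lists. Leaving out each library in turn gave 48 to 2797 genes higher and 20 to 2692 lower, 0 to 2 of the 10 genes higher and 0 to 2 lower, and 0 to 18 and 0 to 14 in the lists, with the upper counts without DMSO replicate 1 except for the 2 genes called lower, which came without DMSO replicate 2. It gave medians of -0.11 to 0.13, sums of -0.13 to 0.11, ratios of MT-ND6 to the heavy strand genes of 0.38 to 0.45, 6 to 8 genes at their place in the order of levels, and values of 0.28 to 0.51 for MT-ND6, -0.46 to -0.095 for MT-ND3, -0.022 to 0.13 for MT-ND1, -0.11 to 0.23 for MT-ND2, -0.11 to 0.15 for MT-ND4, -0.32 to 0.23 for MT-ND4L, -0.11 to 0.13 for MT-ND5, -0.11 to 0.10 for MT-CO1 and -0.25 to 0.0071 for MT-CO2.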

Other observations

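The mitochondrial genome encodes 3 further proteins, all on the heavy strand: MT-ATP8 and MT-ATP6, subunits of ATP synthase whose genes overlap, and MT-CYB, the cytochrome b of complex III. MT-ATP8 had the highest level per length of all tested genes, 9137 ± 2279 CPM per kilobase in the DMSO libraries (SD, n = 2), and MT-ATP6 was next with 4788. The interval of MT-ATP8 holds only 208 bases, 47 of them shared with MT-ATP6. How so short an interval bears on a level per kilobase was not tested. MT-CYB, the protein-coding gene of that strand farthest from the heavy strand promoter, had 1524 CPM per kilobase, between MT-ND5 and MT-ND3 in the mean.

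MT-ATP8 had 2236 and 1565 CPM with DMSO and 2071 and 2125 with dTAG, and MT-ATP6 had 3621 and 2909 with DMSO and 3381 and 3359 with dTAG. MT-CYB had 1890 and 1591 with DMSO and 1691 and 1661 with dTAG. In all 3 genes both dTAG libraries fell between the DMSO libraries. The log2 fold changes were 0.14, 0.05 and -0.05 (adjusted p = 0.54, 0.85 and 0.80, edgeR's quasi-likelihood test), and 0 of the 3 had an unadjusted p under 0.05 or was called by DESeq2 or the likelihood ratio test. MT-ND6 made up 0.538% and 0.549% of the counts on all 13 mitochondrially encoded genes with DMSO and 0.702% and 0.726% with dTAG.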
